A study of Mus musculus with 2 samples.

Results

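Cxcl9, Cxcl10 and Cxcr3 are 3 of the 31053 genes counted in single immune cells from mouse brains carrying GL261 tumours, an implanted mouse glioma line. They were taken by gene symbol, without regard to their values. All 3 were found in both libraries, and they are described here across the states of microglia, macrophages, dendritic cells and lymphocytes. Cxcl11, the third ligand of the same receptor, was not analysed here.

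CXCL9 and CXCL10 are small secreted chemokines that many cells make when they are exposed to interferons. Both bind CXCR3, a G protein-coupled receptor carried by activated T cells, NK cells and some dendritic cells, and draw such cells into inflamed tissue. Interferon-gamma is the classical inducer of CXCL9. CXCL10 responds in addition to type I interferon, to IRF factors and to NF-kB.

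The study compared WT mice with CD169-DTR mice on a C57BL/6 background. In CD169-DTR mice the diphtheria toxin receptor sits in 1 copy of Siglec1, the gene of CD169, so diphtheria toxin removes cells that express CD169. Both groups were males of 8 to 12 weeks, received diphtheria toxin on day -1 and day 4 and 100000 GL261 cells in the brain, and were sampled at day 10. Living CD45.2+ cells were sorted from 3 pooled mice of each genotype into 1 droplet library, which counts unique molecular identifiers (UMIs, 1 for each captured RNA molecule). With 1 library for each genotype there was no replicate, no test between genotypes was possible, and every interval below is an exact 95% interval that covers counting error only. Diphtheria toxin acts on CD169+ cells in the whole animal, and a loss of 1 Siglec1 copy cannot be told apart from a loss of CD169+ cells by Siglec1 counts.

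The WT library held 101808996 UMIs and 10107 cells with a median of 7776 UMIs, and the CD169-DTR library held 84065489 UMIs and 7604 cells with a median of 8099.5 UMIs. A barcode counted as a cell from 1000 UMIs upwards, unless more than 17% of them were mitochondrial. The libraries shared 21 cell barcodes, beside 11.3 expected from the size of the barcode list. Siglec1 stood at 17.8 CPM (UMIs of the gene for each 1000000 UMIs of the cells) in all WT cells and 5.46 CPM in all CD169-DTR cells, a log2 ratio of WT over CD169-DTR of 1.70 (1.55 to 1.86). It was higher in WT in all 8 microglial clusters, by log2 ratios of 1.39 to 2.50, and in both macrophage clusters, by 0.97 and 2.18. Cell classes were named from marker genes, and the suffix -like is left off their names. Microglia held 4736 WT and 5376 CD169-DTR cells, macrophages 2180 and 638, and dendritic cells led by Cd209a (Cd209a DCs) 850 and 200. Smaller classes were dendritic cells led by Xcr1, with 189 and 32 cells, those led by Ccr7, with 149 and 14 cells, and plasmacytoid dendritic cells (pDCs), with 101 and 11 cells. T cells numbered 428 and 210, and NK cells 290 and 80.

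Cxcl9 (ENSMUSG00000029417) and Cxcl10 (ENSMUSG00000034855) are neighbours on mouse chromosome 5. In GENCODE M21 on GRCm38 they span bases 92321347 to 92328079 and 92346638 to 92348889 on the minus strand, 18.559 kb apart. Cxcr3 (ENSMUSG00000050232) lies on the minus strand of chromosome X, bases 101731535 to 101734269. The proximal promoters of both ligand genes are printed because the genes are neighbours and were counted in overlapping but unequal sets of cells. Each runs from 250 bases before to 50 bases after the RefSeq start on GRCm38.p6, at chr5:92328030-92328329 for Cxcl9 and chr5:92348840-92349139 for Cxcl10, and reads 5′ to 3′ on the gene's strand. Capitals mark matches to the motifs searched.
Cxcl9: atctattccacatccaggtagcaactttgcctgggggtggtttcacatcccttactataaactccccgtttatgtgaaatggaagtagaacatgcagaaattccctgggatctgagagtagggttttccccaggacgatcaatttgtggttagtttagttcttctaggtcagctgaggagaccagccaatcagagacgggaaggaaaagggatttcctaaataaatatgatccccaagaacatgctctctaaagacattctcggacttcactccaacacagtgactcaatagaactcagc
Cxcl10: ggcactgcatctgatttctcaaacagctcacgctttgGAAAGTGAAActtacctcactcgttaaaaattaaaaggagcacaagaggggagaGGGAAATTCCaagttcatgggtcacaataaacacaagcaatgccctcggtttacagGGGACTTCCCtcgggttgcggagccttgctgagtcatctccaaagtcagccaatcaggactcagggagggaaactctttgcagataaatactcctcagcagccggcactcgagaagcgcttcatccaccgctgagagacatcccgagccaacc

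In the Cxcl10 window the core of the interferon-stimulated response element, GAAANNGAAA, matched 1 time, with its first base at -213 from the start. The NF-kB consensus matched 2 times, with first bases at -159 and -103. Neither motif matched in the Cxcl9 or Cxcr3 window. The gamma-activated sequence, TTCNNNGAA, an element of interferon-gamma responsive promoters, matched in none of the 3 windows. Both strands were searched, and no match overlapped another. Of 32851 promoter windows of the same length, 3.44% held the interferon-response core, 4.51% the NF-kB consensus and 8.30% the gamma-activated sequence. A match of letters is not a bound site, and a window without a match says nothing of the factor.

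Cxcl10 was the abundant ligand and was counted in nearly every class. It made 124973 UMIs in WT cells and 59992 in CD169-DTR cells, 1329 and 769 CPM. Microglia reached 1395 CPM (1384 to 1406) in WT and 977 CPM (969 to 986) in CD169-DTR. Macrophages reached 2346 CPM (2324 to 2369) in WT and 518 CPM (503 to 533) in CD169-DTR. The order of these classes was thus turned between the libraries, with macrophages above microglia in WT and below them in CD169-DTR. Cd209a DCs stood at 1202 CPM in WT and 429 CPM in CD169-DTR. Xcr1 DCs were lower in both, at 228 and 62.6 CPM, and pDCs lowest of these, at 102 and 7.37 CPM, the latter from 1 UMI. Granulocytes had the highest class level in WT, at 3091 CPM from 169 shallow cells with a median of 2924 UMIs, and stood at 712 CPM in CD169-DTR.

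Among genes with at least 100 UMIs in a class, those over 2-fold apart between the libraries were counted. In microglia both ligands reached 100 UMIs, and 1 of them, Cxcl9, was over 2-fold higher in WT, where 0.602% of 11620 genes were. In macrophages and in Cd209a DCs both ligands were over 2-fold higher in WT, where 2.39% of 9244 genes and 1.89% of 7494 genes were. The log2 ratio of Cxcl10 was 0.51 (0.50 to 0.53) in microglia, 2.18 (2.14 to 2.22) in macrophages and 1.49 (1.40 to 1.57) in Cd209a DCs. Xcr1 DCs had a ratio of 1.86 (1.41 to 2.35) from only 42 UMIs in CD169-DTR. Ccr7 DCs went the other way, at 602 and 827 CPM, but 85.8% of the CD169-DTR UMIs of that class came from 1 of its 14 cells. Without the highest cell of each library the Ccr7 DCs stood at 538 CPM in WT and 126 CPM in CD169-DTR.

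**Figure D1:**
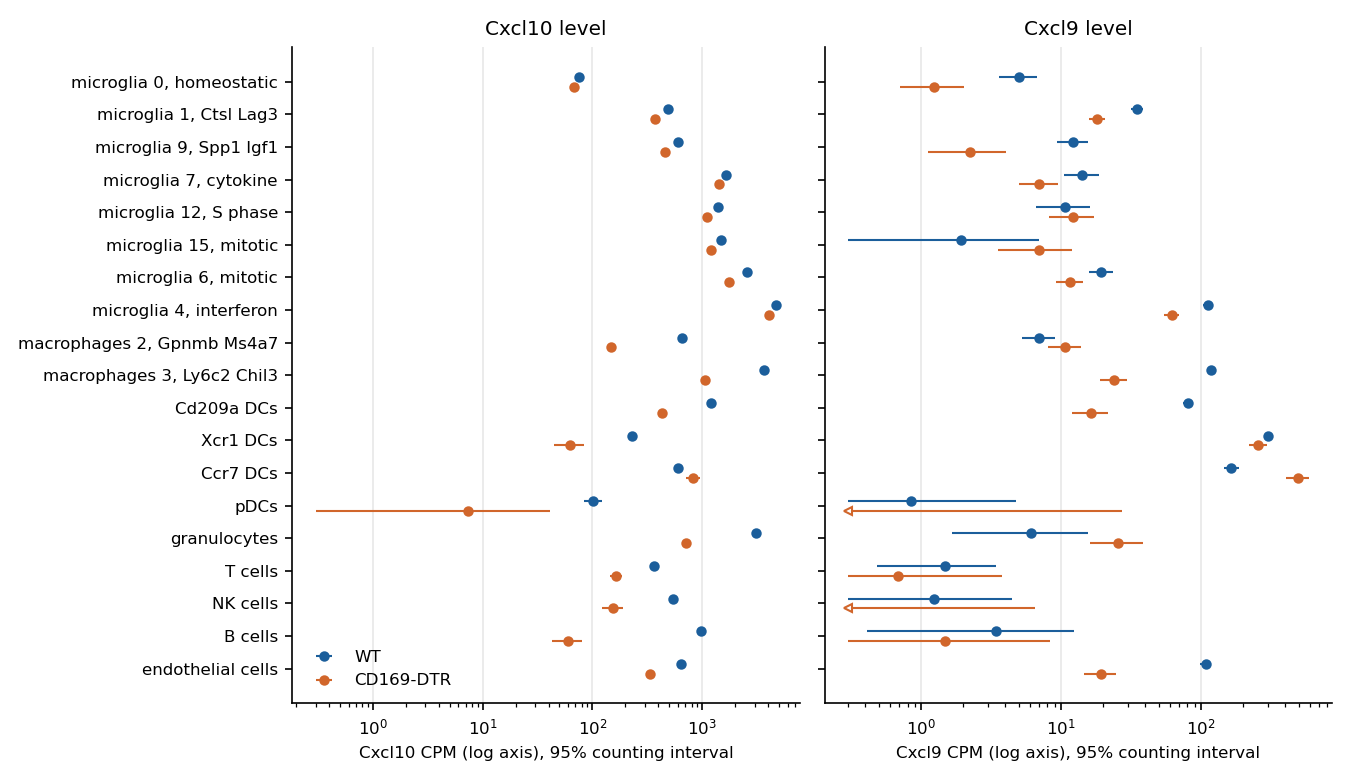
Level of Cxcl10 (left) and Cxcl9 (right) in CPM on a log axis, in each microglial and macrophage cluster and each other class. Points are 1 library each (blue WT, orange CD169-DTR), bars are 95% counting intervals drawn from 0.3 CPM upwards, and open arrowheads are classes with 0 UMIs. In cluster 4 of the microglia Cxcl10 reached 4705 CPM in WT and 4034 CPM in CD169-DTR, while Cxcl9 was highest in Xcr1 and Ccr7 DCs in both.

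Within microglia the level of Cxcl10 depended far more on the state of the cell than on the library. In cluster 0, led by the homeostatic gene P2ry12, Cxcl10 stood at 76.1 CPM in WT and 67.4 CPM in CD169-DTR. In cluster 4, led by Cxcl13, Ccl12, Ifnb1 and Ifit2 and called interferon microglia here, it stood at 4705 CPM (4648 to 4762) and 4034 CPM (3975 to 4094). These are the lowest and the highest microglial clusters in both libraries. The genes that define the clusters come from the same cells, so the spread between clusters is a description, but Cxcl9, Cxcl10 and Cxcr3 were left out of the features used for clustering.

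Cycling microglia also held much Cxcl10. Cluster 6, led by Mki67 and Top2a, stood at 2556 CPM in WT and 1742 CPM in CD169-DTR. Cluster 15, led by Ccnb2 and Cenpe, stood at 1484 and 1207 CPM, and cluster 12, led by the replication gene Mcm5, at 1383 and 1114 CPM. Cluster 7, led by Il1a, Atf3, Ccl3 and Tnf, stood at 1660 and 1413 CPM. Clusters 1 (Ctsl, Lag3) and 9 (Spp1, Igf1), which express genes of lysosomal and disease-associated microglia, were lower. Cluster 1 stood at 486 and 374 CPM and cluster 9 at 606 and 462 CPM.

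All 8 microglial clusters had more Cxcl10 in WT, none of them by over 2-fold, with log2 ratios between 0.17 and 0.55. With the same weight for every cluster in both libraries the microglial log2 ratio was 0.32 instead of 0.51. The states did not occur in equal shares. The interferon microglia made 13.2% (12.2% to 14.2%) of WT microglia and 8.93% (8.18% to 9.72%) of CD169-DTR microglia. The homeostatic cluster 0 made 30.9% and 38.9%, and the cytokine cluster 7 made 6.61% and 9.43%.

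With the libraries integrated, macrophages formed 2 clusters that each held close to equal shares of the class in both, with 51.1% of WT and 52.0% of CD169-DTR macrophages in cluster 2. Cluster 2 was led by Gpnmb, Fabp5 and Ms4a7, and its markers were slightly nearer those of border-associated macrophages than those of infiltrating ones. Cluster 3 was led by Chil3, Plac8 and Ly6c2, genes of monocytes that have newly entered tissue. Cxcl10 in cluster 3 stood at 3635 CPM (3598 to 3672) in WT and 1067 CPM (1033 to 1101) in CD169-DTR, a log2 ratio of 1.77 (1.72 to 1.82). In cluster 2 it stood at 653 and 149 CPM, a log2 ratio of 2.13 (2.02 to 2.24). The ratio was over 2-fold within both of these clusters, but this and the equal shares depended on the clustering. With the libraries merged without integration, a Gpnmb-led cluster held 16.3% of WT and 36.5% of CD169-DTR macrophages, and Cxcl10 there stood at 90.3 and 104 CPM, a log2 ratio of -0.21 (-0.40 to -0.02). A cluster led by Slfn4 and Ly6c2 then held 51.3% and 24.3% and had a log2 ratio of 1.43 (1.36 to 1.49), and the other 2 macrophage clusters had ratios of 1.48 and 2.91. With the 3 genes allowed among the clustering features, the Gpnmb-led cluster had 20.5% and 33.1% of the class and a ratio of 0.85 (0.69 to 1.01), the Ly6c2 cluster had 60.3% and 33.0% and a ratio of 1.47, and the other 2 had ratios of 0.83 and 3.22. The clusters with ratios of 2.91 and 3.22 were led by Hp and Ear2, and Ear2 led a cluster left unnamed and outside the macrophages in the main clustering. The shares in the 3 settings are thus not taken of the same set of cells. A difference in the make-up of the class and a difference within its states are thus only partly told apart here.

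To compare the share of cells with a Cxcl10 UMI at equal depth, each cell was thinned at random to 3000 UMIs and shallower cells were left out. In cluster 3 the share was 65.0% (62.0% to 67.9%) of 1026 WT cells and 31.7% (26.4% to 37.3%) of 300 CD169-DTR cells. In cluster 2 it was 34.7% of 861 WT cells and 16.2% of 314 CD169-DTR cells. Depth differed most in cluster 2, with medians of 4710 UMIs in WT and 16156 UMIs in CD169-DTR, and 252 and 18 cells were left out. Both fewer cells with Cxcl10 and fewer UMIs in total were thus seen in CD169-DTR macrophages. Macrophage marker genes moved as well between the libraries. Over the class, Ly6c2 stood at 1854 CPM in WT and 759 CPM in CD169-DTR, and Plac8 at 3063 and 1395 CPM. Ms4a4c stood at 1736 and 753 CPM, while Gpnmb stood at 856 and 1224 CPM. The monocyte genes did not all move alike. Chil3, a leading gene of cluster 3, was lower in WT, at 203 and 377 CPM. Ccr2 differed little, at 335 and 289 CPM. The part of these differences in the Cxcl10 ratio was not tested.

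**Figure D2:**
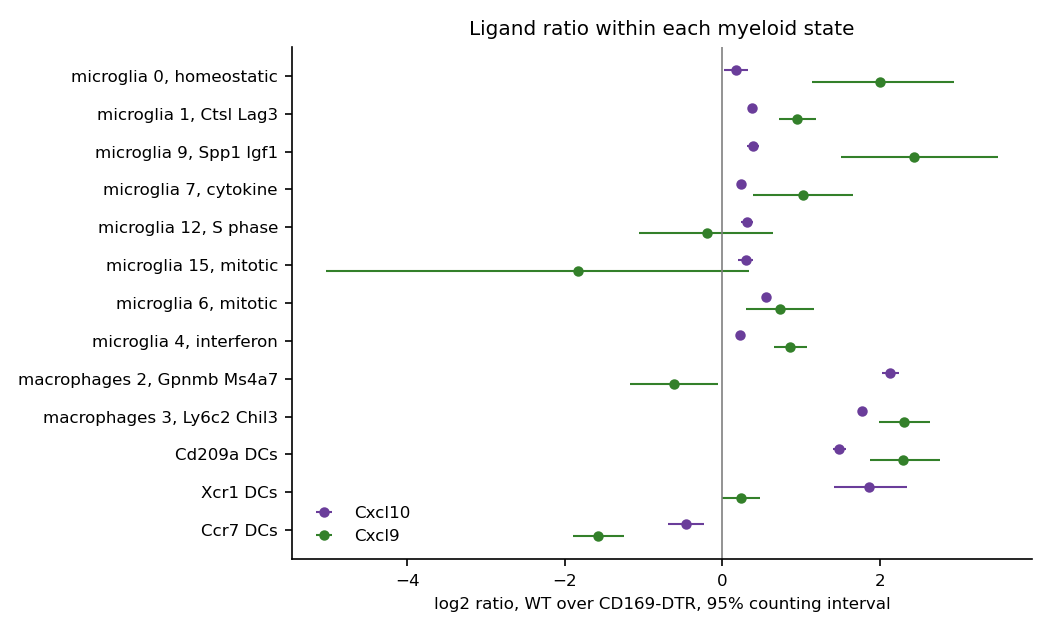
Log2 ratio of WT over CD169-DTR of Cxcl10 (purple) and Cxcl9 (green) in each microglial cluster, each macrophage cluster and each class of conventional dendritic cells, with 95% counting intervals. The Cxcl10 ratios of the 8 microglial clusters sit between 0.17 and 0.55, those of the 2 macrophage clusters of the integrated data at 1.77 and 2.13, and the Cxcl9 ratios spread from -1.83 to 2.43.

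Cxcl9 was much rarer than Cxcl10. It made 5176 UMIs in WT and 1265 UMIs in CD169-DTR cells, 55.0 and 16.2 CPM, and 515 and 191 cells had any. Xcr1 DCs, which present antigen to CD8 T cells, had 301 CPM (282 to 321) in WT and 256 CPM (219 to 298) in CD169-DTR. Their log2 ratio of 0.23 had an interval from just under 0 to 0.47. In CD169-DTR 1 of the 32 cells held 45.9% of these UMIs. Ccr7 DCs, a migratory state, stood at 165 and 492 CPM, with 37.1% of the UMIs in 1 of 149 WT cells and 85.0% in 1 of 14 CD169-DTR cells. Without the highest cell of each library they stood at 105 and 79.9 CPM, so the direction turned. The dendritic classes led by Xcr1 and Ccr7 had the highest Cxcl9 levels in both libraries.

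Cd209a DCs had 80.3 CPM (74.7 to 86.4) of Cxcl9 in WT and 16.3 CPM in CD169-DTR, a log2 ratio of 2.30 (1.87 to 2.76). Macrophages had 70.3 CPM (66.5 to 74.3) in WT and a log2 ratio of 2.14 (1.89 to 2.39), and 1 WT cell held 31.6% of their 1258 UMIs. Without the highest cell of each library macrophages stood at 48.1 and 12.6 CPM. Nearly all the WT macrophage UMIs, 1204 of them with those of the highest cell included, lay in cluster 3, at 118 CPM beside 23.9 CPM in CD169-DTR. In cluster 2 the level was 6.98 CPM in WT and 10.7 CPM in CD169-DTR, a log2 ratio of -0.62 (-1.18 to -0.06). That ratio rested on 1 CD169-DTR cell, which held 53.4% of the 58 UMIs of its library. Without the highest cell of each library cluster 2 stood at 5.32 and 5.00 CPM, and at 3000 UMIs 1.39% and 1.27% of its cells had a Cxcl9 UMI. These ratios also depended on the clustering. Without integration the cluster led by Slfn4 and Ly6c2 had a log2 ratio of 0.37 (0.02 to 0.74), that led by Clec4e and Plac8 3.01 and the Gpnmb-led cluster -3.24. With the 3 genes among the clustering features the Ly6c2 cluster had 1.59 and the Gpnmb-led cluster -0.25.

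Microglia had 30.7 CPM (29.1 to 32.4) of Cxcl9 in WT and 13.4 CPM (12.4 to 14.4) in CD169-DTR, a log2 ratio of 1.19 (1.06 to 1.33). The interferon microglia were again highest, at 112 and 61.7 CPM. The other microglial clusters ranged in WT from 1.94 CPM in the mitotic cluster 15 to 35.0 CPM in cluster 1. Of the 8 clusters, 6 had more Cxcl9 in WT, 3 of them by over 2-fold. Clusters 12 and 15, both cycling, had less, with intervals of the ratio that crossed 0. At 3000 UMIs, 2.73% of WT and 1.49% of CD169-DTR microglia had a Cxcl9 UMI. By comparison, none of 380 WT T cells had one at this depth, where 3 cells would be 0.789%, and 0.505% of 198 CD169-DTR T cells did. Without thinning, 4 of 428 WT T cells had one.

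Both ligands were concentrated in few cells. Counted from the highest cell down, 50% of the Cxcl9 UMIs lay in 32 WT cells and 12 CD169-DTR cells. For Cxcl10, 50% lay in 404 WT cells, 4.00% of all, and in 195 CD169-DTR cells, 2.56% of all. The highest Cxcl10 cells were microglia in both libraries, with 770 UMIs in a mitotic WT cell and 510 UMIs in a CD169-DTR cell of cluster 7.

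The share of cells with a Cxcl9 UMI was compared between cells with at least 5 Cxcl10 UMIs and cells with fewer, at 3000 UMIs each. In WT it was 19.7% against 1.93% of Cd209a DCs, 7.92% against 1.86% of macrophages and 6.32% against 1.97% of microglia. In CD169-DTR it was 15.4% against 2.79%, 5.00% against 0.903% and 4.98% against 0.987%, the first from 13 cells with much Cxcl10. Cxcl9 UMIs were thus more frequent in cells with much Cxcl10 in each of these classes, yet most such cells had no Cxcl9 UMI. Within the interferon microglia the shares were 11.4% and 5.47% in WT, and 5.94% and 5.69% in CD169-DTR. Read the other way, many cells with Cxcl9 lacked Cxcl10. Of WT cells with at least 3 Cxcl9 UMIs, 21 of 43 microglia and 8 of 18 Xcr1 DCs had no Cxcl10 UMI, as did 5 of 30 macrophages and 1 of 17 Cd209a DCs. Within WT microglia it was 16 of 18 in cluster 1 but 3 of 20 in the interferon microglia. In CD169-DTR it was 6 of 20 microglia, 2 of 3 Xcr1 DCs, 1 of 5 macrophages and 1 of 2 Cd209a DCs.

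What else the cells with much Cxcl10 expressed was read from fixed gene lists, in cells with at least 5 against cells with 0 Cxcl10 UMIs at 3000 UMIs. The share of all genes that were higher in this split was not counted, so how unusual the counts below are is not known. These were 791 and 2820 WT microglia, 663 and 3673 CD169-DTR microglia, 543 and 921 WT macrophages, and 60 and 468 CD169-DTR macrophages. The 8 interferon-response genes, among them the antiviral genes Ifit1 and Rsad2, were all higher in the cells with much Cxcl10, in both classes and both libraries. Their median log2 ratios were 2.42 and 2.54 in microglia and 2.15 and 2.72 in macrophages, WT first. Rsad2 stood at 563 against 61.7 CPM in WT microglia and at 1740 against 249 CPM in WT macrophages.

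Genes more selective for interferon-gamma were also higher, 9 of 10 in microglia of either library, 10 of 11 in WT macrophages and 10 of 10 in CD169-DTR macrophages. Their medians were 1.47 and 1.99 in microglia and 1.46 and 1.88 in macrophages. The GTPase gene Gbp5 stood at 73.3 against 12.8 CPM in WT microglia and at 185 against 20.3 CPM in WT macrophages. The MHC class II gene H2-Aa was the exception in microglia, at 59.0 against 61.3 CPM in WT.

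Of the other lists, the homeostatic genes went the same way in both classes and the disease-associated genes did not. In microglia with much Cxcl10 the 5 mitotic genes were all higher, with medians of 1.49 in WT and 1.37 in CD169-DTR, and none of the 5 homeostatic genes was, with a median of -0.80 in both. P2ry12, a purine receptor of resting microglia, stood at 565 against 1747 CPM in WT. In macrophages with much Cxcl10 none of the homeostatic genes with at least 20 UMIs was higher either, with medians of -0.34 and -1.44. Only 1 mitotic gene reached 20 UMIs in WT macrophages and none did in CD169-DTR ones. Disease-associated genes had medians of -1.87 in WT and -1.28 in CD169-DTR macrophages, against 0.35 and 0.57 in microglia. Apoe stood at 10053 against 25389 CPM in WT macrophages and Spp1 at 366 against 2212 CPM. Siglec1 itself was higher in microglia and macrophages with much Cxcl10, by log2 ratios of 1.80 and 1.82 in microglia and 0.45 and 2.48 in macrophages, the last from 10 UMIs in 60 cells. In WT Cd209a DCs it was 6.37 against 16.8 CPM, a log2 ratio of -1.40 from 3 and 23 UMIs with an interval of -3.78 to 0.32. Median depth was higher in microglia with much Cxcl10, 10306 against 7070 UMIs in WT before thinning.

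**Figure D3:**
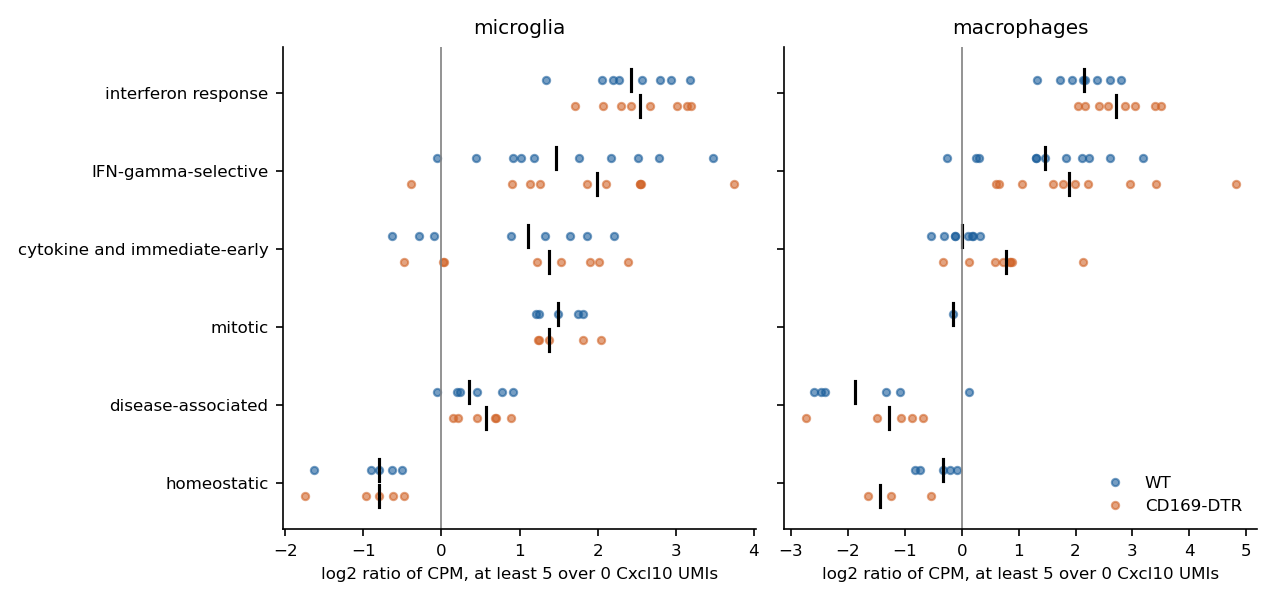
Log2 ratio of CPM between cells with at least 5 and cells with 0 Cxcl10 UMIs, in microglia (left) and macrophages (right), for genes of 6 fixed lists. Each point is a gene with at least 20 UMIs in 1 library (blue WT, orange CD169-DTR) and each black mark is the list's median (genes with 0 UMIs in either set count in it but are not drawn), which for interferon-response genes lies between 2.15 and 2.72.

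The genes that act before and beside the ligands were taken from a list of 44. Interferon-gamma, the main inducer, was counted in T cells at 193 CPM in WT and 366 CPM in CD169-DTR. The log2 ratio was -0.92 (-1.09 to -0.75). NK cells had 402 and 516 CPM, a ratio of -0.36 (-0.56 to -0.16). In CD8 T cells thinned to equal depth, Ifng was higher in WT. It stood there at 318 CPM in cells with and 324 CPM in cells without a Cxcr3 UMI. In CD169-DTR these levels were 43.0 CPM, from 4 UMIs, and 233 CPM. The paper reports lower Ifng after depletion from a comparison of single cells in its own T cell clusters. It also reports fewer tumour T cells producing IFN-gamma by flow cytometry. The pooled levels given here are another measure over another set of cells. The part of each T cell subset in the T cell ratio was not tested. Ifnb1, a type I interferon gene, stood at 26.6 and 33.7 CPM in microglia, and Tnf at 205 and 277 CPM.

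The interferon receptor genes Ifngr1, Ifngr2, Ifnar1 and Ifnar2 and the kinase genes Jak1, Jak2 and Tyk2 stayed within 2-fold in microglia, macrophages and Cd209a DCs. Jak2 in macrophages came nearest, at 63.9 and 35.3 CPM. Of the 10 transcription factors and inhibitors, none was over 2-fold lower in WT macrophages and 4 were over 2-fold higher, where 2.39% of all genes were. These were Irf7 at 1638 and 696 CPM, Stat2 at 211 and 103 CPM, the inhibitor Socs1 at 101 and 42.4 CPM, and Usp18, which damps type I interferon signalling, at 299 and 117 CPM. Irf1 stood at 209 and 109 CPM, just within 2-fold.

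Cd209a DCs had 3 of these 10 genes over 2-fold higher in WT, beside 1.89% of all genes. They were Irf7 at 1592 and 619 CPM, Socs1 at 65.1 and 31.9 CPM, and Usp18 at 393 and 170 CPM. Lymphocytes had such genes too, 4 of the 10 in NK cells (median log2 ratio 0.46) and 2 in T cells (0.52), beside 2.06% and 2.86% of all genes. Microglia had none, with a median of 0.22 and with Usp18 highest at 0.71. Irf8, which microglia and dendritic cells need, was nearly equal in microglia, at 549 and 548 CPM. The ratios of this group were thus larger in macrophages, median 0.91, than in microglia, as were those of Cxcl10, and no test of that difference was possible. The medians over all genes with at least 100 UMIs were -0.02 in macrophages and -0.04 in microglia.

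Among the 7 companion chemokines, Ccl5 was over 2-fold higher in WT in microglia, at 862 and 279 CPM, and in macrophages, at 1130 and 287 CPM. Ccl2 in macrophages stood at 1096 and 829 CPM, and Ccl3 and Ccl4 in microglia had log2 ratios of -0.34 and -0.27. In Cd209a DCs Ccl7 was over 2-fold lower in WT, at 14.8 and 61.1 CPM, where 1.13% of genes were lower. Dpp4, a peptidase that trims CXCR3 ligands, was over 2-fold higher in WT macrophages, at 14.0 and 5.41 CPM. Over the whole list, 2 of 37 genes in microglia, 6 of 36 in macrophages and 3 of 35 in Cd209a DCs were over 2-fold higher in WT. Of all genes, 0.602%, 2.39% and 1.89% were. The listed genes lower by over 2-fold were 0, 0 and 1, beside 0.301%, 0.573% and 1.13% of all genes.

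The classes that held the ligand UMIs were counted next. In WT, microglia held 48.0% of the Cxcl10 UMIs, macrophages 33.6% and Cd209a DCs 8.85%. In CD169-DTR the shares were 84.9%, 7.82% and 2.06%. Cluster 3 of the macrophages alone held 29.6% of the Cxcl10 UMIs of WT from 10.6% of the cells. For Cxcl9 the shares in WT were 25.5% in microglia, 24.3% in macrophages, 18.6% in Xcr1 DCs and 14.3% in Cd209a DCs. Xcr1 DCs thus held 18.6% of the Cxcl9 UMIs while making 1.87% of WT cells. In CD169-DTR microglia held 55.3%, Xcr1 DCs 13.6%, macrophages 11.5% and Ccr7 DCs 8.93%.

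A library-wide level can change through the shares of classes or through their levels. With the class shares of CD169-DTR and the class levels of WT, Cxcl10 over all cells came to 1363 CPM, near the 1329 CPM of WT. With WT shares and CD169-DTR levels it came to 643 CPM, near the 769 CPM of CD169-DTR. The library-wide difference of Cxcl10 thus followed the levels of whole classes more than the class shares. A shift of states inside a class counts as a level here, such as that of the interferon microglia from 13.2% of WT to 8.93% of CD169-DTR microglia. The part of such shifts was not tested. For Cxcl9 both counted, with 55.0 CPM in WT, 41.1 CPM with only the shares exchanged, 29.0 CPM with only the levels exchanged and 16.2 CPM in CD169-DTR. Cxcr3 followed the shares, with 11.5 CPM in WT, 6.25 CPM with only the shares exchanged, 10.8 CPM with only the levels exchanged and 5.32 CPM in CD169-DTR.

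**Figure D4:**
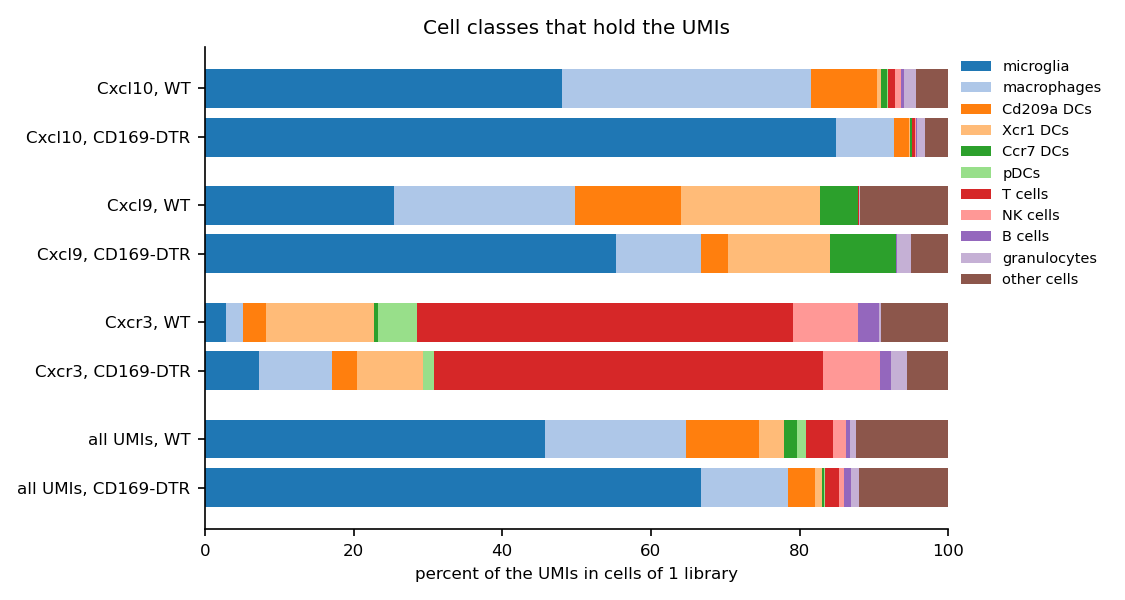
Share of the UMIs of each gene, and of all UMIs, that lay in each cell class, in percent of the UMIs in cells of 1 library. Macrophages held 33.6% of the WT Cxcl10 UMIs and 7.82% of the CD169-DTR ones, while T cells held 50.6% and 52.3% of the Cxcr3 UMIs.

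Cxcl10 UMIs were also counted in lymphocytes, so free RNA in the droplets was estimated. Barcodes of 10 to 100 UMIs held Cxcl10 at 1867 CPM in WT and 1000 CPM in CD169-DTR, above the level of all cells. From microglial genes found in lymphocytes, a droplet held about 104 free UMIs in WT and 77.5 in CD169-DTR, 1.33% and 0.957% of a median cell. That gives 0.194 and 0.0775 free Cxcl10 UMIs for each droplet. At 3000 UMIs, free RNA would give a Cxcl10 UMI to 8.60% of WT and 3.60% of CD169-DTR T cells, and 31.8% (27.2% to 36.8%) and 13.6% (9.18% to 19.2%) had one. NK cells had 32.8% and 14.3% beside 9.90% and 3.66%. Cells of the choroid plexus, an epithelium outside the immune classes, had 10.3% and 4.73% beside 4.32% and 2.10%, with median depths of 14550 and 12530 UMIs against 6276 and 6357 UMIs in T cells.

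T and NK cells thus had a Cxcl10 UMI more often than the free-RNA estimate and than choroid plexus. In WT T cells 1 cell had 149 of the 1241 UMIs, and in CD169-DTR T cells 1 cell had 93 of 241. The log2 ratios were 1.16 (0.96 to 1.37) in T cells and 1.81 (1.49 to 2.15) in NK cells, where 2.86% of 5277 genes and 2.06% of 2909 genes were over 2-fold higher in WT. Cxcl10 of T and NK cells moved with the free RNA, whose Cxcl10 per droplet was also higher in WT, and the part of free RNA and of droplets with 2 cells was not tested further. B cells in CD169-DTR had 4.50% beside 4.98% estimated, no excess over the free-RNA estimate at this depth. At 4500 UMIs, however, 16% of 50 such cells had a Cxcl10 UMI. Without thinning, the 124 cells held 40 Cxcl10 UMIs, beside 0.0775 free ones estimated for each droplet. The source of these UMIs was not tested. Back at the lower depth used above, the share in WT B cells was 25.4% of 71 cells beside 10.2%. Of the UMIs of WT B cells, 30.4% lay in 1 cell. In microglia the share was 37.9% beside 7.51% in WT and 29.6% beside 2.99% in CD169-DTR, and in macrophages 51.2% beside 7.97% and 23.8% beside 2.10%.

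Cxcr3, the receptor, was highest in T cells in both libraries. T cells stood at 162 CPM (148 to 176) in WT and 148 CPM (129 to 169) in CD169-DTR, a log2 ratio of 0.13 with an interval of -0.10 to 0.36. NK cells stood at 58.4 CPM (47.3 to 71.4) and 57.0 CPM (39.0 to 80.4), a log2 ratio of 0.04 (-0.56 to 0.66). Neither difference exceeded counting error. Of the members with at least 100 UMIs, which were Cxcl10 and Cxcr3, only Cxcl10 was over 2-fold apart in T cells and in NK cells. The genes over 2-fold lower in WT made 0.246% and 0.378% of those counted in T and NK cells.

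At 3000 UMIs, 33.7% (28.9% to 38.7%) of 380 WT T cells and 30.3% (24.0% to 37.2%) of 198 CD169-DTR T cells had a Cxcr3 UMI. Without thinning the shares were 53.0% and 44.8%. NK cells had 16.4% and 11.7%. Microglia had the lowest level of the immune classes with a Cxcr3 UMI in both libraries, with shares of 0.242% and 0.287% at median depths of 7650.5 and 7871 UMIs, taken here as the background. T cells had median depths of 6276 and 6357 UMIs. Macrophages had 0.530% (0.254% to 0.972%) and 1.63% (0.784% to 2.97%). Their level was 1.40 CPM (0.904 to 2.06) in WT and 4.52 CPM (3.25 to 6.14) in CD169-DTR, from 25 and 41 UMIs, far below that of T cells but with a log2 ratio of -1.70 (-2.47 to -0.94).

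The T and NK cells were clustered again to find which subsets carried the receptor. Sub-clusters led by myeloid genes, 86 WT and 14 CD169-DTR cells with medians of 13781.5 and 14400.5 UMIs, were left out of the T and NK cells, and had 69.9 and 91.5 CPM of Cxcr3. CD8 T cells stood at 187 CPM (164 to 212) in WT and 186 CPM (153 to 224) in CD169-DTR, with a UMI in 38.6% and 41.9% of cells at 3000 UMIs. Regulatory T cells, whose leading genes were Foxp3 and Il2ra but also Il13, Il5 and Il1rl1 of type 2 lymphocytes, stood at 127 CPM (99.2 to 159) and 179 CPM (127 to 246). Gamma-delta T cells, led by Cd163l1 and Il17a, stood at 143 and 94.2 CPM, the latter from 7 UMIs in 11 cells. In these subsets the interval of the ratio included 0.

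Other T cells, led by Ccr7, S1pr1 and Tcf7, genes of naive and central memory cells, were the T cell subset in which the libraries stood apart. They had 188 CPM (156 to 224) in 127 WT cells and 87.4 CPM (62.2 to 120) in 76 CD169-DTR cells, a log2 ratio of 1.10 (0.57 to 1.66). The shares at 3000 UMIs were 37.3% (27.9% to 47.4%) and 12.7% (5.96% to 22.7%). In these cells 1 CD169-DTR cell held 17.9% of the 39 UMIs. The subset was picked out after its values were seen, and its difference from the other subsets was not tested.

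**Figure D5:**
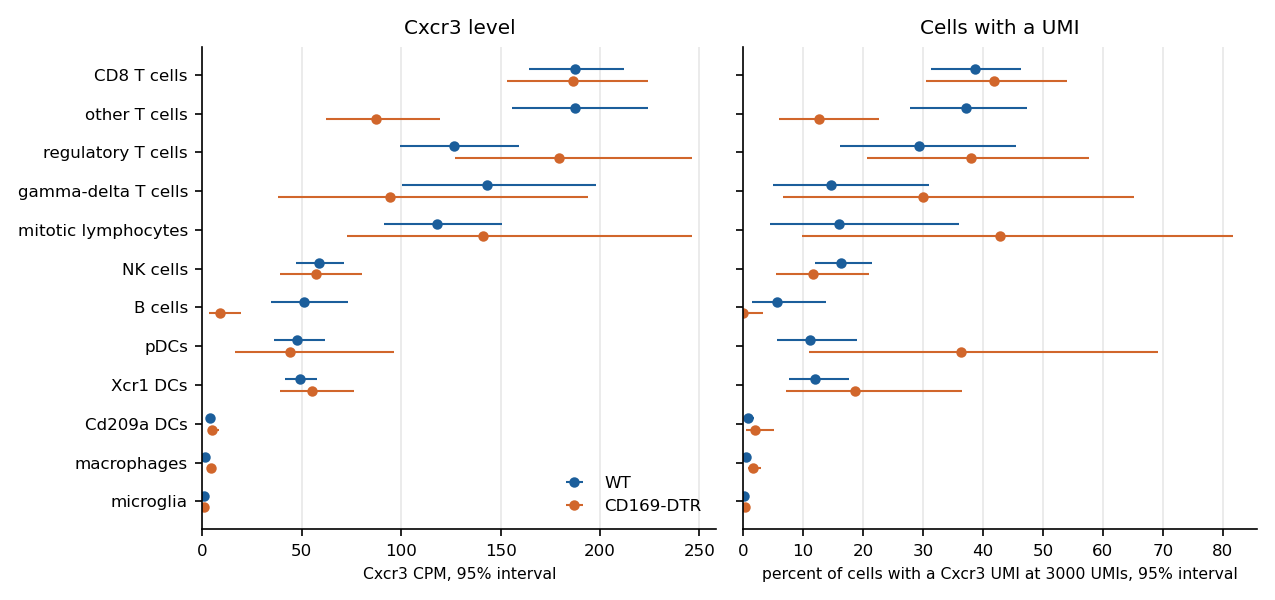
Cxcr3 level in CPM (left) and percent of cells with a Cxcr3 UMI after thinning to 3000 UMIs (right), in lymphocyte subsets, dendritic classes, macrophages and microglia, with 95% counting intervals (blue WT, orange CD169-DTR). CD8 T cells stood at 187 and 186 CPM, and the intervals of the level lie apart between the 2 libraries in other T cells, in B cells and, near 0 on this axis, in macrophages.

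Dendritic cells carried the receptor in some classes only. Xcr1 DCs stood at 49.1 CPM (41.7 to 57.4) in WT and 55.1 CPM (38.8 to 76.0) in CD169-DTR, and pDCs at 47.6 and 44.2 CPM, the latter from 6 UMIs. In WT these levels did not differ from that of NK cells beyond their intervals. Cd209a DCs had 3.59 and 4.86 CPM, and Ccr7 DCs 3.71 CPM in WT and no UMI in 14 CD169-DTR cells. Xcr1 DCs thus stood out for both a ligand, Cxcl9, and the receptor. B cells in WT had 51.1 CPM, but 14 of 30 UMIs lay in 1 cell, and in CD169-DTR all 6 UMIs lay in 1 cell. Of the Cxcr3 UMIs, T cells held 50.6% in WT and 52.3% in CD169-DTR, Xcr1 DCs 14.5% and 8.92%, and NK cells 8.80% and 7.71%.

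T cells with and without a Cxcr3 UMI were compared for genes of T cell state, 128 against 252 WT cells and 60 against 138 CD169-DTR cells. Of the listed genes with at least 20 UMIs, 12 of 22 in WT and 10 of 19 in CD169-DTR were higher in the cells with Cxcr3, with median log2 ratios of 0.07 and 0.11. The share of all genes was not counted for this split. Gzmk, a granzyme of early effector and memory CD8 cells, stood at 151 against 45.0 CPM in WT, with an interval of the log2 ratio from 1.11 to 2.40. In CD169-DTR it stood at 83.3 against 38.6 CPM from 15 and 16 UMIs, with an interval from -0.01 to 2.22. Ccr7, the lymph node homing receptor, was lower, at 41.7 against 91.3 CPM in WT, and had no UMI in 60 CD169-DTR cells against 103 UMIs in 138. A T cell without a Cxcr3 UMI at this depth may still express the gene.

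Mki67, a marker of cycling cells, went in different directions in the libraries. It stood at 59.9 against 103 CPM in WT, a log2 ratio of -0.78 (-1.52 to -0.10), and at 150 against 14.5 CPM in CD169-DTR, a ratio of 3.37 (2.07 to 4.94). The latter rested on 27 and 6 UMIs, and the mitotic sub-cluster of T and NK cells held only 25 WT and 7 CD169-DTR cells. In CD8 T cells Mki67 had 2 and 5 UMIs in WT and 3 and 1 in CD169-DTR, with intervals of the ratio that crossed 0. Ifng was lower in CD169-DTR cells with Cxcr3, at 55.6 against 490 CPM from 10 and 203 UMIs. The CD8 T cells of that library without Cxcr3 had 30 UMIs. Whether few cells held these UMIs was not counted. In WT Ifng stood at 255 against 210 CPM, where the interval of the log2 ratio ran from -0.10 to 0.65. Gzmb was higher in cells with Cxcr3 in both, at 654 against 545 CPM and 539 against 184 CPM. Tbx21, the transcription factor that drives Cxcr3, rested on 19 and 26 UMIs in WT, with an interval of the ratio from -0.41 to 1.43. In all T cells Tbx21 stood at 36.7 CPM in WT and 25.9 CPM in CD169-DTR, and the chemokine receptor gene Cxcr6 stood at 236 and 258 CPM.

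The genes most like each member were named by the highest Pearson correlation on log2(CPM + 10) over 43 sums, 1 for each of 24 clusters in each library where it held at least 50 cells, among 11236 genes. The sums share libraries and clusters, so these values are descriptions. For Cxcl10 the genes were Ifit2 (r = 0.86), Oasl1 (0.84) and Ifit3 (0.81), followed by Oas2, Ifih1, Usp18, Parp10 and Rtp4. For Cxcl9 they were Ifih1 and Cd40 (0.70 each), followed by Tor1aip2, Usp18, Ifi35, Ube2l6, Irf7 and Ifit2. For Cxcr3 they were Tespa1 and Tbc1d10c (0.90 each), followed by Sept1, Ptprcap, Tnfrsf18, Acap1, Lat and Trbc2. Cxcl9 and Cxcl10 correlated at 0.50, and each was correlated more strongly with many other genes, with Cxcl10 ranking 81 for Cxcl9. Cxcr3 had correlations of -0.07 with Cxcl9 and -0.15 with Cxcl10.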

How the data were processed

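The deposited files hold raw UMI counts for every barcode, which the authors made with Cell Ranger (3.1.0 in the matrix headers) against mm10, per the labels and headers. Following the study's stated steps, counts were log-normalised and integrated with Seurat 5.3.0 (R 4.3.3; 50 dimensions, 2000 features without the 3 genes) and clustered on 30 dimensions at resolution 1, and T and NK cells again on 20 dimensions at resolution 0.5. Clusters needed 3 detected markers to be named. The naming thresholds were set after seeing the data, and the members and gene lists were chosen with earlier results of these data known. Levels are CPM of summed counts, shares come from cells thinned to 3000 UMIs, and Poisson, conditional and Clopper-Pearson 95% intervals (scipy 1.17.1) were checked on simulated data. Genes named were the members, the fixed lists and the 8 genes most like each member. Doublets were kept in the main values. Scrublet marked 299 WT cells but only 1 CD169-DTR cell, so it had not worked there. In its place the 6% of cells with the highest scores were removed from each library, an alternative chosen after seeing the data. Promoters came from RefSeq, where all 3 genes matched. The values of 2 genes of the fixed lists are not reported here.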

Additional observations from a re-analysis of the deposited data

How the results depend on the processing

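Each of 9 log2 ratios of WT over CD169-DTR was recomputed under other settings, giving 94 values. Of these, 71 lay inside the counting interval of the reported ratio, 20 lay outside it and 3 had the other sign. The causes of these moves were not tested. Cxcl10 in microglia moved from 0.51 to 0.49 without the 6% of cells with the highest doublet scores, to 0.56 with median-ratio scaling and to 0.32 with the same weight for every cluster. In macrophages it moved from 2.18 to 2.29 without those doublet candidates, to 1.84 with the same weight for every cell, to 1.82 with the same weight for every cluster and to 2.25 without the highest cell of each library. In Cd209a DCs it moved from 1.49 to 1.92, 1.83 and 1.62 under the doublet, cell weight and highest cell settings, to 1.7 without integration and to 1.81 with the 3 genes among the clustering features. Cxcl9 in microglia moved from 1.19 to 1.04 with equal cells and 0.8 with equal clusters, and in macrophages from 2.14 to 1.47 and 1.86. In Cd209a DCs it moved from 2.3 to 2.84 without the highest cells and 1.7 without integration, and in Xcr1 DCs from 0.23 to 0.86 without the highest cells and -0.08 with equal cells. Cxcr3 in T cells moved from 0.13 to 0.39 with equal cells. In NK cells it moved from 0.04 to -0.03 with at least 2000 UMIs and -0.03 with at most 10% mitochondrial UMIs, within its interval. Resolution 0.5 and subtraction of free RNA kept all 9 ratios inside their intervals. Within macrophage states, the Cxcl10 ratio of the Gpnmb-led cluster moved from 2.13 to -0.21 without integration and to 0.85 with the 3 genes among the features.

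Thinning sets the shares: WT T cells with a Cxcr3 UMI made 18.5% at 1000, 33.7% at 3000 and 47.8% at 4500 UMIs. Cxcl9 and Cxcr3 are limited by depth in every class under 100 UMIs, and 1 library for each genotype leaves the spread between mice unknown. No paired analysis was possible because each genotype had 1 library.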

Other observations

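Vascular and stromal cells that passed the CD45.2+ sort also held ligand UMIs. Endothelial cells, 402 in WT and 278 in CD169-DTR, had 645 and 335 CPM of Cxcl10 and 108 and 19.2 CPM of Cxcl9. The highest endothelial cell held 25.8% and 34.1% of the Cxcl10 UMIs, and 34.1% and 82.3% of the Cxcl9 UMIs. All the Cxcl9 UMIs came from few endothelial cells, 12 in WT and 5 in CD169-DTR. The endothelial clusters differed, with Cxcl10 at 745 and 394 CPM in cluster 10, led by Cldn5, and at 42.8 and 39.0 CPM in cluster 22, led by Plvap. An unnamed cluster led by Vtn and Rgs5, genes of pericytes, had 1351 CPM in 54 WT cells and 558 CPM in 34 CD169-DTR cells, with 49.1% and 84.1% of the UMIs in 1 cell. An unnamed cluster led by Ear2, Ace and Treml4, genes of patrolling monocytes, was low, at 63.4 and 34.8 CPM.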
